A study of Vaccinium corymbosum with 9 samples.

Results

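The 261 genes described here carry the GO term photosynthesis in the deposited annotation of blueberry (Vaccinium corymbosum) and do not carry a term for light harvesting, chlorophyll synthesis, chlorophyll breakdown or plastid translation. They are 261 of the 302 genes with the photosynthesis term and of 93716 genes in all. By KEGG ortholog and GO terms, 37 of them belong to photosystem I, 75 to photosystem II, 12 to electron carriers and 12 to assembly and repair, and the other 125 to carbon metabolism, regulation and further roles. None carried an ortholog of the cytochrome b6f complex, the chloroplast ATP synthase or the NDH-like complex. RNA came from ground whole fruit of the cultivar Bluecrop, grown in an orchard without treatment, at 3 stages of natural development (early green, then color break, then mature) with 3 libraries each. The labels call the replicates independent and do not say how many plants or berries each holds.

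Photosynthesis turns light into chemical energy on the thylakoid membranes of the chloroplast. Photosystem II takes electrons from water at the oxygen-evolving complex, photosystem I passes them to ferredoxin, and ferredoxin-NADP+ reductase uses them to make NADPH for carbon fixation. Young green berries hold chloroplasts in their outer tissue, and ripening fruit lose their chlorophyll. The core subunits PsaA, PsaB, D1 and D2 are encoded in the chloroplast genome, so the nuclear genes here code for the peripheral subunits and the helper proteins.

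Estimated counts summed to 52919289 to 67604266 per library, so that a count of 0 allows up to 0.0444 to 0.0567 counts scaled to library size (CPM), counting error only. One color break library, replicate 3, was set apart from its fellows: the correlation of log2 CPM over genes was 0.940 and 0.945 with replicates 1 and 2, and 0.969 between those. Of the 164 photosynthesis genes tested, 60 were highest and 57 lowest in it among the color break libraries.

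The summed levels of both photosystems were lower at color break than in green fruit and lower still, by a smaller step, in mature fruit. Summed over the 37 photosystem I genes, the level was 1118 ± 27.8 FPKM in green fruit, 403.5 ± 30.2 at color break and 300.4 ± 17.2 in mature fruit (SD, n = 3 libraries each). FPKM are fragment numbers scaled to transcript length and library depth, so genes of different length can be set side by side. The 75 photosystem II genes summed to 1040 ± 14.5 FPKM in green fruit, 434 ± 20.3 at color break and 328.5 ± 18.2 in mature fruit. In both photosystems the libraries of each stage stood apart from those of the other stages. The 149 genes outside the photosystems summed to 901 ± 3.72 FPKM in green fruit, 858 ± 46.8 at color break and 1011 ± 30.6 in mature fruit. Without the 16 photoprotection genes described further on, this sum was 875 ± 5.97 FPKM in green fruit, 751 ± 12.5 at color break and 740.2 ± 1.30 in mature fruit. The GO terms of these 16 genes name both photosystems, but the photosystem sums and calls given here leave them out. Electron carriers held 39.1% of their green level at color break and assembly and repair genes 25.8%. Carbon metabolism summed to 125% of its green level, but this came from 1 enzyme, the pyrophosphate-dependent phosphofructokinase, at 157%. In the same group carbonic anhydrase stood at 18.8% and pyruvate, phosphate dikinase at 34.7% (15.1% to 73.1% across libraries). Of 15 tested carbon metabolism genes 5 fell and 3 rose by the calls defined below, with a median log2 change of -0.71. For the groups that were lower, fewer green cells and less transcript per cell cannot be told apart in whole fruit.

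**Figure D1:**
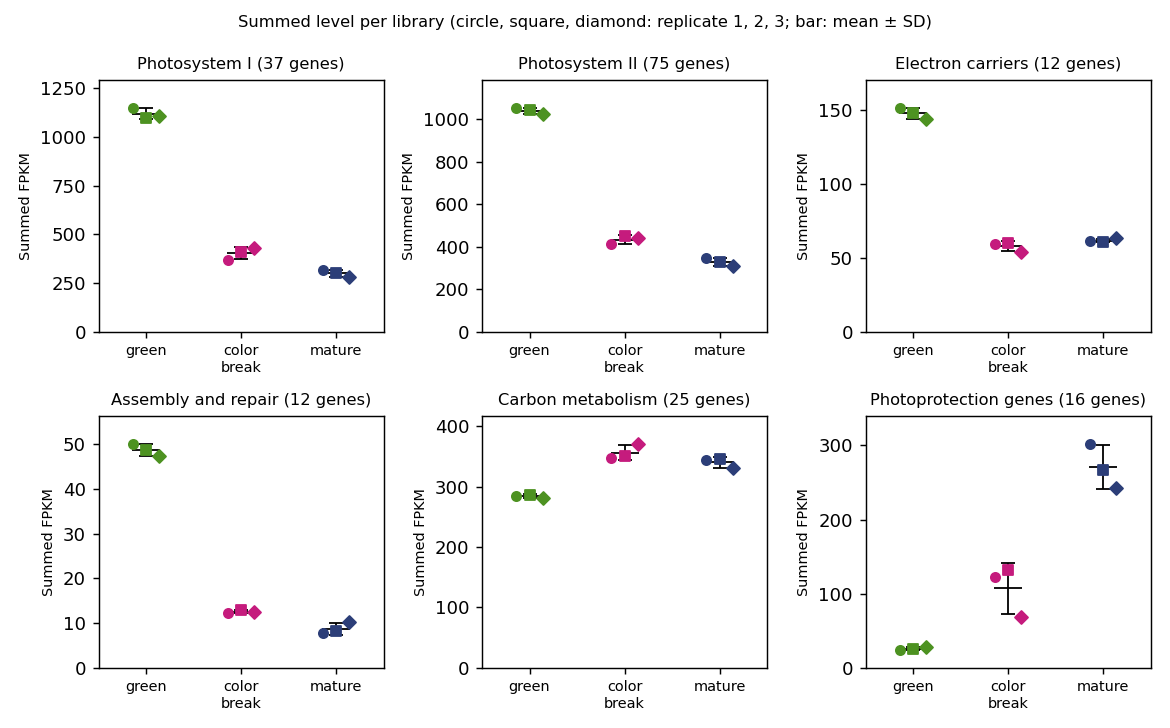
Summed FPKM (vertical axes, from 0) of the genes of 6 groups at the 3 stages (horizontal axes), with 1 point per library and bars at the mean ± SD. Photosystem I, photosystem II, electron carriers and assembly genes are highest in green fruit. The carbon metabolism sum, most of it from phosphofructokinase genes, is lowest there. The 16 photoprotection genes climb to 271 FPKM in mature fruit.

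The comparison of color break with green fruit covers the start of ripening. A gene was tested when at least 3 of the 9 libraries reached 1 FPKM, which 164 of the 261 genes did, and it was called when its edgeR adjusted p lay under 0.05 and its log2 change reached 1 in either direction. Of the 164 tested genes 75 fell and 8 rose (80 and 8 without color break replicate 3), where 13.9% and 8.89% of the 48073 genes tested in the whole table fell and rose, and 22.8% were called in either direction. Their median log2 change was -0.96 against -0.01 over all genes tested. The log2 changes carry TMM scaling between libraries, which FPKM do not. With library size as the only scaling the median of all genes moved to -0.31 and that of the photosynthesis genes to -1.26. A change of scaling shifts all genes by about the same amount, so their distance of 0.95 could not move and is no check. The split over all genes shifted to 2941 higher and 9465 lower against 4274 and 6705.

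Markers of other tissues moved with the stages as well. Seed storage genes fell in 62 of 82 tested and rose in 4 at color break, and their sum was 1530 to 2304 FPKM at color break, highest in replicate 3, and 24830 to 30150 FPKM in green fruit. Of the 104 seed genes, 16 were at 0 at color break and 2 in green fruit. Pigmented skin markers, which are enzymes of anthocyanin synthesis, rose in 19 of 20 tested genes, and markers of lignified cells rose in 10 and fell in 2 of 18. The green tissue markers, Rubisco small subunit and light-harvesting proteins, fell in 14 of 23 tested genes and rose in 2, with sums of 310 FPKM at color break and 1316 FPKM in green fruit. The part of seed, skin and library differences in the results here was not tested.

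The filter on low values itself favoured genes that are high in green fruit. Of the 164 tested genes, 26 passed it through the green libraries alone, and 23 of these were called lower. Such a gene had to be lower after green fruit to be tested at all. Its values below are therefore a description and its p-value supports nothing further. The 26 genes include all 3 tested Psb28 genes, 3 of 9 PsbP and 3 of 6 unnamed photosystem II genes. They also include 3 of 7 assembly and repair, 2 of 4 PsaN and 2 of 5 calcium-binding photosystem II genes. PsaF, PsaK, PsaL, PsbS, the manganese-binding set and pyruvate, phosphate dikinase hold 1 each. So do carbonic anhydrase, heme oxygenase, group II intron splicing and the zinc finger set. In the other direction, 4 genes had no green library at 1 FPKM, of which 3 are photoprotection genes. The 138 not limited to green held 52 falls and 8 rises, with a median of -0.68. Just inside the filter stood VaccDscaff1-processed-gene-328.2, a phosphoenolpyruvate carboxylase gene, with 1.10 FPKM in its third-highest library. Just outside it stood the zinc finger gene VaccDscaff257-processed-gene-0.7 with 0.975 FPKM. The 97 untested genes averaged at most 0.775 FPKM over the libraries and held 1.07% of the summed FPKM.

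From color break to mature fruit few genes were called. Of the 164 tested genes 6 fell and 4 rose in mature against color break fruit, with a median of -0.22, where 1.37% of all genes tested were called (0.612% lower and 0.763% higher). The falls numbered 2 without color break replicate 2, and the rises 1 without mature replicate 1 or mature replicate 2 and 2 without mature replicate 3. All 6 falls were photosystem genes and all 4 rises were photoprotection genes. Mature against green fruit gave 89 falls and 9 rises with a median of -1.26, where 24.6% of all genes tested were called (15.1% lower and 9.49% higher). Over the 3 stages 123 of the 164 genes changed in the edgeR F test, and 59.0% of all genes tested did.

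Gene by gene, 67 of the tested genes fell at color break, had no call between color break and mature and stayed lower in mature than in green fruit. A further 6 fell at both steps. Another 16 were called only over the whole interval from green to mature, and 63 were not called in any of the 3 comparisons. A rise at both steps was seen in 2 genes, of which VaccDscaff4-snap-gene-54.61 was tested through the later stages alone. Of the 26 genes tested through green fruit alone, 24 were called lower in mature than in green fruit, a direction that the filter favoured. How many of all genes tested showed each pattern was not counted.

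**Figure D2:**
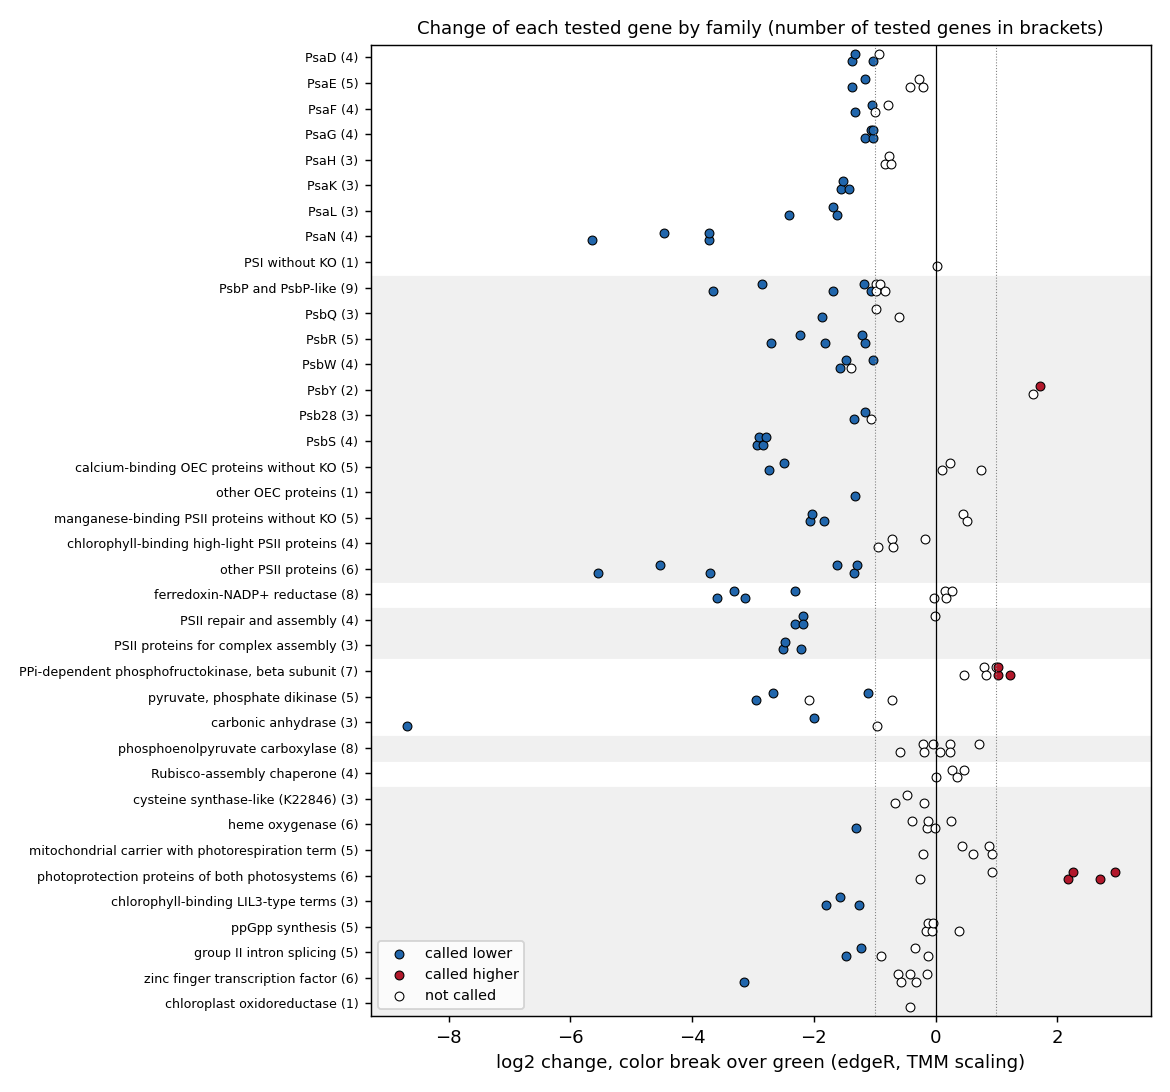
Log2 change at color break over green fruit (horizontal axis) of each of the 164 tested genes, by family (vertical axis, number tested in brackets; shaded bands mark role groups). Filled points were called, and dotted lines mark a log2 change of 1 in either direction. PsaN and PsbS lie well left of most photosystem families, the ferredoxin-NADP+ reductase genes form a low cluster of points and one near 0, and called rises lie in PsbY, the phosphofructokinase and the photoprotection genes.

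Photosystem I was represented by 8 nuclear subunit families, of which PsaD and PsaE form the docking site for ferredoxin on the stromal side, PsaF and PsaN take part in binding plastocyanin on the lumenal side, and PsaG, PsaH, PsaK and PsaL sit at the rim of the complex. Of 31 tested photosystem I genes 21 fell and 0 rose at color break against green, and at an unadjusted p under 0.05 these were 27 and 0 (DESeq2 also gave 21 and 0). In mature against green fruit 27 fell. All but 1 of the 31 had their color break libraries below their green libraries in FPKM. How many of all tested genes did so was not counted. FPKM carry no TMM scaling, and without it the median log2 change of all genes tested was already -0.31. The exception was VaccDscaff8-augustus-gene-88.16, which the KEGG orthologs did not name. Its color break values of 3.49, 4.55 and 3.94 FPKM overlapped its green values of 4.87, 4.87 and 4.48 FPKM.

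PsaG had the highest photosystem I levels. Its gene VaccDscaff207-processed-gene-1.1 (scaffold 207, 103281 to 103727, 1 exon) had 50.3, 56.3 and 56.8 FPKM at color break, against 141, 124 and 140 FPKM in green fruit. The color break libraries lay close together and well below all green libraries (log2 change -1.03 ± 0.09, edgeR adjusted p = 8.2e-06). In mature fruit it had 50.9, 46.3 and 42.4 FPKM, which overlapped color break (log2 change -0.25 ± 0.09, edgeR adjusted p = 0.145). All 4 PsaG genes fell at color break, by 1.02 to 1.15 on the log2 scale. The call of this gene, next to the limit of 1, was lost without green replicate 3 or without color break replicate 1.

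PsaN stood at the other end. Its 5 genes, of which 4 were tested, together held 50.8 ± 0.296 FPKM in green fruit, 2.65 ± 0.0681 at color break and 1.00 ± 0.303 in mature fruit. Color break fruit thus had 5.22% of the green level and mature fruit 1.97%. The gene VaccDscaff39-augustus-gene-133.31 (scaffold 39, 13342275 to 13343340, 3 exons) had 1.04, 0.987 and 0.810 FPKM at color break, against 15.9, 14.97 and 14.8 FPKM in green fruit (log2 change -3.73 ± 0.23, edgeR adjusted p = 7.0e-07). It fell again in mature fruit, to 0.428, 0.481 and 0.198 FPKM (log2 change against color break -1.35 ± 0.26, edgeR adjusted p = 0.0171), with no overlap between the stages. That second call was lost without color break replicate 2.

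All 4 tested PsaN genes were called lower at color break, 2 of them tested through green fruit alone. In mature against color break fruit 2 of the 4 were called lower again. VaccDscaff6-augustus-gene-295.38, chosen after its values were seen, also fell at both steps, by 3.72 ± 0.22 and by 1.25 ± 0.24 on the log2 scale (edgeR adjusted p = 5.2e-07 and adjusted p = 0.0177). VaccDscaff37-augustus-gene-181.26 (scaffold 37, 18116634 to 18117691, 3 exons), which passed the filter through green fruit alone, had 0.0709, 0 and 0.0552 FPKM at color break, against 1.90, 3.99 and 2.54 FPKM in green fruit (log2 change -5.64 ± 0.69, edgeR adjusted p = 2.6e-04). It was not called in mature against color break fruit (edgeR adjusted p = 0.177). No counts were found for it in any mature library. Against a floor of 3 counts per library, it was at least 50.99-fold lower in mature than in green fruit.

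The other photosystem I families lay between these ends. The share of the green level left at color break was 23.1% for PsaL, 28.6% for PsaK, 38.03% for PsaD, 38.4% for PsaF, 39.9% for PsaG, 48.3% for PsaE and 48.4% for PsaH, from the summed FPKM of each family. In mature fruit the shares ran from 15.7% for PsaL to 36.1% for PsaH. Within photosystem I, PsaN made up 0.703%, 0.636% and 0.635% of the summed FPKM in the color break libraries, against 4.44%, 4.62% and 4.56% in the green libraries. Unequal steps were seen within PsaE too, where 2 of 5 genes fell at color break and the other 3 had log2 changes of -0.42 to -0.21. None of the 3 PsaH genes was called at color break by edgeR or DESeq2. In edgeR all 3 passed the adjusted p (largest adjusted p = 7.8e-04) but missed the log2 limit of 1, with changes of -0.83 to -0.73. All 3 were called lower in mature than in green fruit.

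**Figure D3:**
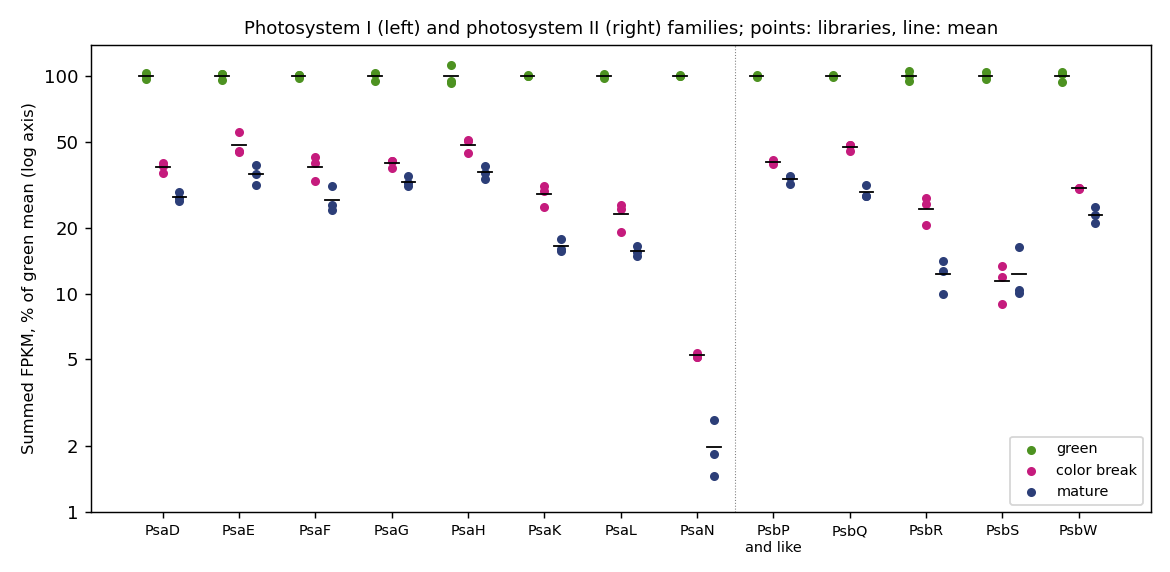
Summed FPKM of 13 photosystem families with a KEGG ortholog, without PsbY and Psb28, each as a percentage of its green mean (vertical log axis), with 1 point per library and a line at the mean, for green, color break and mature libraries. PsaN drops to 5.22% and 1.97%, PsbS is at 11.4% and 12.3%, and the other 11 families shown lie between 12.3% and 48.4% at the later stages.

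Photosystem II included the extrinsic proteins of the oxygen-evolving complex (PsbP and PsbQ), PsbR, which helps hold these proteins in place, the small membrane subunits PsbW and PsbY, the assembly protein Psb28, and PsbS, which senses the acidity of the thylakoid lumen and switches on the harmless release of excess light as heat. Of 51 tested genes 32 fell and 1 rose at color break against green, and 42 fell and 1 rose in mature against green. The gene with the highest level was the PsbQ gene VaccDscaff4-augustus-gene-176.15 (scaffold 4, 17587941 to 17590520, 3 exons). It had 68.6, 77.1 and 70.9 FPKM at color break, against 170, 170 and 173 FPKM in green fruit, and 47.5, 44.1 and 42.9 FPKM in mature fruit. The 3 stages did not overlap. Its log2 change of -0.97 ± 0.06 at color break missed the limit of 1 (edgeR adjusted p = 9.0e-07), and it fell by 1.68 ± 0.06 in mature against green fruit (edgeR adjusted p = 2.6e-08).

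The 9 PsbP and PsbP-like genes showed a wide spread of change. The most abundant, VaccDscaff72-augustus-gene-1.28 and VaccDscaff2-augustus-gene-226.26, both had log2 changes of -0.98 at color break and were called only in mature against green fruit. A low copy that was tested only for its green level, VaccDscaff12-snap-gene-14.32, fell by more and had 0.177, 0.301 and 0.341 FPKM at color break, against 3.23, 4.63 and 4.997 FPKM in green fruit (log2 change -3.66 ± 0.36, edgeR adjusted p = 1.7e-05). These 3 genes were chosen after their values were seen. All 9 genes were below green in every color break library, in FPKM without TMM scaling and with no such count over all genes. All 9 were called lower in mature than in green fruit.

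PsbS fell at color break and was not called again after it. Its 4 genes summed to 49.9 ± 1.91 FPKM in green fruit, 5.71 ± 1.12 at color break and 6.16 ± 1.77 in mature fruit. All 4 fell at color break by 2.78 to 2.93 on the log2 scale (largest edgeR adjusted p = 3.1e-05). Between color break and mature fruit 0 of 4 were called, none had an unadjusted p under 0.05 and DESeq2 also called 0, with log2 changes of 0.02 to 0.30. As a share of the summed photosystem II FPKM, PsbS held 1.45%, 1.48% and 1.02% in color break and 4.93%, 4.61% and 4.86% in green libraries.

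The small subunit PsbW and the assembly protein Psb28 were lower after green fruit as well. Of 4 PsbW genes 3 fell at color break and all 4 were lower in mature than in green fruit, with summed levels of 77.0 ± 4.02 FPKM in green fruit, 23.5 ± 0.229 at color break and 17.7 ± 1.44 in mature fruit. Of 3 Psb28 genes, all tested through green fruit alone, 2 fell at color break, and the family held 35.98% of its green level.

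PsbR kept falling. Its 6 genes, of which 5 were tested, summed to 102 ± 5.54 FPKM in green fruit, 25.1 ± 3.63 at color break and 12.6 ± 2.18 in mature fruit. All 5 tested genes fell at color break and 2 of them fell again in mature against color break fruit. The gene VaccDscaff6-augustus-gene-30.20 had 9.70, 12.2 and 12.2 FPKM at color break and 5.37, 5.51 and 5.01 FPKM in mature fruit, against 31.6, 31.2 and 29.2 FPKM in green fruit. Its falls were 1.16 ± 0.09 at color break and 1.12 ± 0.09 in mature against color break fruit (edgeR adjusted p = 3.4e-06 and adjusted p = 9.0e-04). Its model is 3710 nt long and was chosen after its values were seen, as was VaccDscaff6-processed-gene-10.6, an oxygen-evolving complex gene by GO term that also fell at both steps (log2 change -1.33 ± 0.09 at color break and -1.06 ± 0.09 in mature against color break, edgeR adjusted p = 1.0e-06 and adjusted p = 9.0e-04).

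The steepest fall in photosystem II belonged to a gene known only by its GO term for the complex, VaccDscaff41-snap-gene-105.45 (scaffold 41, 10578259 to 10579252, 2 exons). It passed the filter through its green libraries alone. It had 0, 0 and 0.418 FPKM at color break and 0, 0 and 0.210 FPKM in mature fruit, against 8.03, 8.78 and 10.1 FPKM in green fruit. All 13 of its color break counts came from replicate 3 (log2 change -5.55 ± 1.02, edgeR adjusted p = 0.00168). All 6 tested genes of this unnamed set fell at color break, 3 of them tested through green fruit alone. The gene VaccDscaff39-processed-gene-149.0 (scaffold 39, 14902165 to 14902503, 1 exon) fell again, to 1.20, 0.840 and 0.605 FPKM in mature fruit, against 1.58, 2.40 and 2.94 FPKM at color break (log2 change -1.36 ± 0.32, edgeR adjusted p = 0.0373). That call was lost in 7 of the 9 fits that left out 1 library.

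Only PsbY held a called rise within photosystem II. Its gene VaccDscaff9-processed-gene-245.4 (scaffold 9, 24567188 to 24572337, 4 exons) had 12.7, 14.7 and 8.95 FPKM at color break and 11.5, 11.2 and 9.15 FPKM in mature fruit, against 4.74, 4.39 and 4.16 FPKM in green fruit. All color break and mature libraries lay above all green ones (log2 change at color break 1.72 ± 0.19, edgeR adjusted p = 3.6e-05), and mature and color break libraries overlapped (log2 change -0.21 ± 0.18, edgeR adjusted p = 0.558). It shares its protein description with the second PsbY gene and 2 genes of the manganese-binding set, and the call was lost when counts of genes with 1 description were summed. The model overlaps a gene on the opposite strand, VaccDscaff9-processed-gene-245.17, that averaged 0.109 FPKM. The second PsbY gene had 0, 4.72 and 2.09 FPKM at color break against 1.27, 1.41 and 0 FPKM in green fruit and was not called.

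Sets of photosystem II genes named by GO terms alone were split. Of 5 tested calcium-binding genes of the oxygen-evolving complex, 2 fell by 2.49 and 2.74 on the log2 scale. Both of these were tested through green fruit alone. The other 3 had log2 changes of 0.10 to 0.74 without a call. Of 5 manganese-binding genes, 3 fell by 1.84 to 2.06, and 1 of these was tested through green fruit alone. The other 2 had log2 changes of 0.45 and 0.51, under the limit of 1, and were not called, though they passed the adjusted p (0.0406 or less in edgeR). In mature against green fruit these 2 also had positive changes, of up to 0.76 (edgeR adjusted p of 0.00289 or less). With library size as the only scaling, the highest change of the manganese-binding genes at color break was 0.21. The 4 chlorophyll-binding genes with a high-light term were not called at color break (log2 changes -0.94 to -0.18), and 3 of these 4 were lower in mature than in green fruit. All 7 tested genes for assembly or repair of photosystem II except VaccDscaff11-augustus-gene-4.20 (log2 change -0.00) fell at color break, by 2.17 to 2.50 on the log2 scale.

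The most abundant assembly gene was VaccDscaff4-augustus-gene-412.24 (scaffold 4, 41215554 to 41218790, 7 exons), which carries the term for repair of photosystem II. It had 2.93, 2.60 and 3.52 FPKM at color break and 2.27, 2.19 and 1.97 FPKM in mature fruit, against 17.3, 17.1 and 15.4 FPKM in green fruit (log2 change at color break -2.18 ± 0.12, edgeR adjusted p = 4.1e-07). The largest fall among these genes at color break was that of VaccDscaff10-augustus-gene-262.17, with 0.399, 0.395 and 0.376 FPKM against 2.40, 2.68 and 2.96 FPKM in green fruit (log2 change -2.50 ± 0.38, edgeR adjusted p = 3.6e-04). In mature fruit it was that of VaccDscaff36-processed-gene-9.21, by 3.19 ± 0.49 against green (edgeR adjusted p = 4.2e-04). Neither of these last 2 genes reached 1 FPKM in any library after green fruit, so both were tested through green fruit alone.

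Ferredoxin-NADP+ reductase genes formed a set that fell and a set without calls. Plants hold forms of this enzyme for leaf chloroplasts and for non-green plastids, and the annotation does not say which form each gene encodes. The 4 tested genes that also carry a GO term for the thylakoid membrane protein complex all fell at color break, by 2.30 to 3.59 on the log2 scale (largest edgeR adjusted p = 9.1e-05). Summed with 1 untested gene they had 8.94, 10.2 and 10.2 FPKM at color break and 9.23, 7.85 and 9.30 FPKM in mature fruit, against 98.2, 94.5 and 92.6 FPKM in green fruit. The 4 genes without that term had 49.6, 49.8 and 42.95 FPKM at color break and 51.7, 52.2 and 53.5 FPKM in mature fruit, against 52.2, 52.0 and 49.8 FPKM in green fruit. None of these 4 was called at color break by edgeR or DESeq2 and 2 were higher at an unadjusted p under 0.05 in edgeR, with log2 changes of -0.03 to 0.27. With library size as the only scaling the 3 positive changes turned negative, and the highest log2 change of the 4 was -0.03.

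The set without the term thus held 84.7%, 83.01% and 80.8% of the enzyme's summed FPKM in color break libraries, against 34.7%, 35.5% and 34.95% in green libraries. The gene with the largest fall was VaccDscaff30-processed-gene-296.27 (scaffold 30, 29663468 to 29667961, 9 exons), with 1.57, 1.56 and 1.83 FPKM at color break against 27.8, 22.7 and 21.99 FPKM in green fruit (log2 change -3.59 ± 0.17, edgeR adjusted p = 1.4e-07). The gene with the highest mean over all libraries was VaccDscaff11-augustus-gene-259.34 (scaffold 11, 25935025 to 25940192, 5 exons) of the set without calls. It had 15.7, 16.05 and 15.7 FPKM at color break, against 16.2, 15.8 and 15.7 FPKM in green fruit, and 17.3, 18.7 and 19.03 FPKM in mature fruit. Its log2 change of 0.27 ± 0.06 at color break was past the adjusted p (0.00443 in edgeR) but far from the limit of 1.

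**Figure D4:**
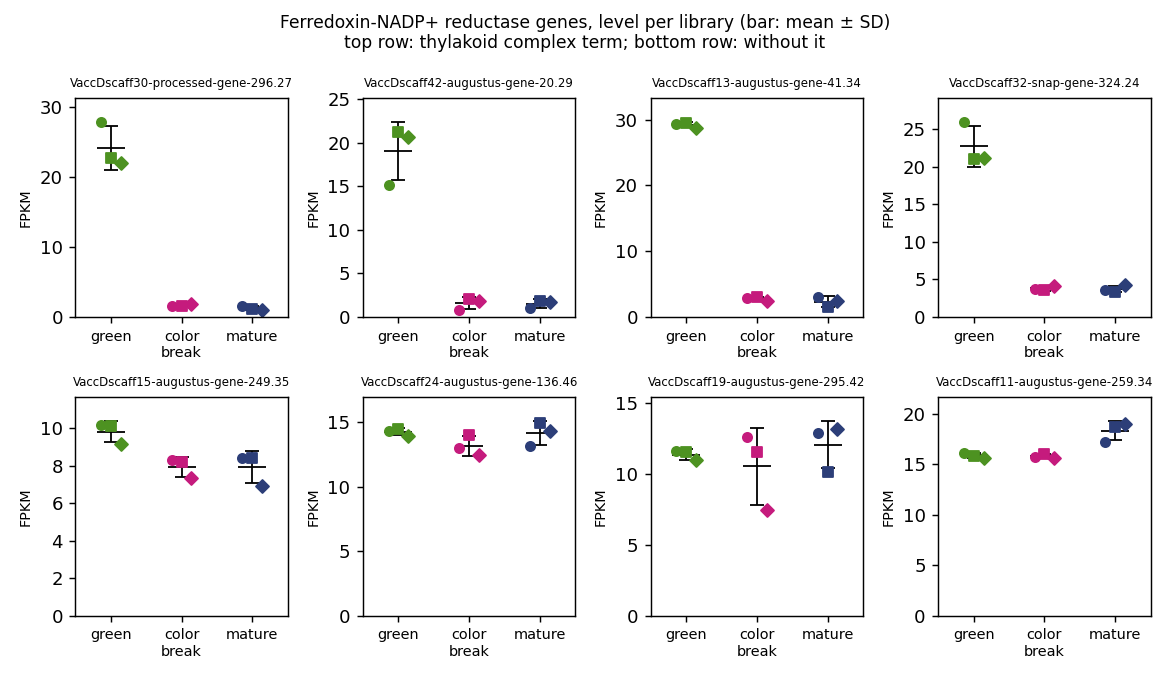
FPKM (vertical axes, from 0) of the 8 tested ferredoxin-NADP+ reductase genes at the 3 stages (horizontal axes), with 1 point per library and bars at the mean ± SD. The 4 genes of the top row, which carry the thylakoid complex term, drop at color break, and the 4 of the bottom row, none of them called, hold 47.5 FPKM together at color break and 51.3 in green fruit.

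Genes not counted in either photosystem group moved in both directions. The largest rises of all tested photosynthesis genes were found among 16 genes whose GO terms place them in both photosystems and in photoprotection, the guarding of the complexes against excess light. None has a KEGG ortholog or a named protein, and 6 of them were tested. The 16 summed to 25.9 ± 2.25 FPKM in green fruit, 107 ± 34.5 at color break and 271 ± 29.98 in mature fruit. At color break 4 of 6 rose, in mature against color break fruit 4 of 6 rose, and in mature against green fruit all 6 rose. Of these 6, 3 had no green library at 1 FPKM and were tested only through the later stages, so they had to be higher there and add no support to these counts. Set against the summed FPKM of both photosystems, the photoprotection genes came to 45.5%, 42.5% and 40.9% in the mature libraries, against 1.10%, 1.17% and 1.34% in the green libraries.

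Most of this level came from VaccDscaff4-augustus-gene-54.49 (scaffold 4, 5479745 to 5481031, 3 exons). It had 102, 109 and 58.2 FPKM at color break, against 13.7, 12.4 and 15.99 FPKM in green fruit (log2 change 2.95 ± 0.24, edgeR adjusted p = 1.4e-05). In mature fruit it reached 220, 199 and 190 FPKM, above every color break library (log2 change 1.16 ± 0.22 against color break, edgeR adjusted p = 0.0222). Color break replicate 3 was the lowest of its stage. Without that library the log2 change was 3.18 ± 0.11 at color break and 0.92 ± 0.11 in mature against color break fruit, under the limit of 1, and the second call was also lost without any 1 of the mature libraries.

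The other tested photoprotection genes were less abundant. On scaffold 35, VaccDscaff35-augustus-gene-34.47 (3323163 to 3324222, 3 exons) had 25.7, 21.2 and 17.4 FPKM in mature fruit, against 4.24, 4.84 and 2.18 FPKM at color break (log2 change 2.49 ± 0.28, edgeR adjusted p = 0.00232). Its green libraries had 4.73, 5.55 and 5.96 FPKM, and the gene was not called at color break (log2 change -0.26 ± 0.27, edgeR adjusted p = 0.455). VaccDscaff35-snap-gene-33.12, chosen after its values were seen, was likewise not called at color break with all libraries (log2 change 0.93 ± 0.35, edgeR adjusted p = 0.0558) but was called higher there without color break replicate 3 (log2 change 1.26 ± 0.21, edgeR adjusted p = 0.00116). It was called in mature against color break fruit, with 35.9, 29.8 and 21.9 FPKM in mature fruit against 8.53, 11.01 and 3.89 FPKM at color break (log2 change 1.89 ± 0.35, edgeR adjusted p = 0.0238). VaccDscaff4-snap-gene-54.61, one of the 3 genes tested through the later stages alone, rose by 2.26 ± 0.35 at color break and by 1.37 ± 0.32 in mature against color break fruit (edgeR adjusted p = 4.8e-04 and adjusted p = 0.0383). Its second call was lost in 7 of the 9 fits that left out 1 library.

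On scaffold 9 stood the other two of these 3 genes. VaccDscaff9-snap-gene-31.79 had 2.39, 3.03 and 0.948 FPKM at color break, against 0.354, 0.350 and 0.459 FPKM in green fruit (log2 change 2.70 ± 0.40, edgeR adjusted p = 3.7e-04). VaccDscaff9-augustus-gene-31.55 had the largest fitted log2 change in mature against green fruit, a value from low green levels, with 5.51, 4.41 and 2.25 FPKM in mature against 0, 0.449 and 0.299 FPKM in green libraries (log2 change 4.26 ± 0.74, edgeR adjusted p = 9.7e-04). The 16 genes sit in 4 clusters, of 4 genes on scaffold 4 (5444611 to 5481031), 3 on scaffold 9 (3092160 to 3110556), 6 on scaffold 35 (3299275 to 3423472) and 3 on scaffold 36 (27485230 to 27525872). Models of opposite strand overlap in the clusters, and VaccDscaff4-snap-gene-54.61 and VaccDscaff9-augustus-gene-31.55 each overlap an untested member of the set that averaged 0.0154 and 0.0358 FPKM. The 6 genes share 2 protein descriptions, so how reads were split among the copies is uncertain. With counts summed over genes of 1 description, the change of VaccDscaff35-augustus-gene-34.47 at color break became that of its description and turned to 2.59.

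**Figure D5:**
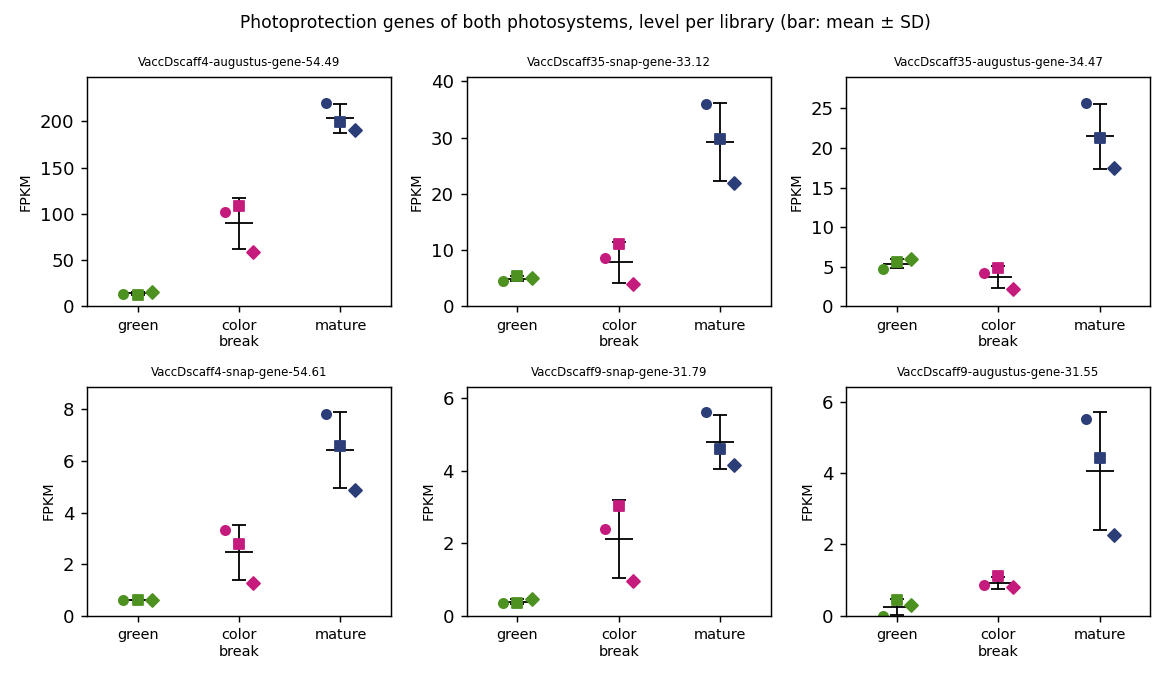
FPKM (vertical axes, from 0) of the 6 tested photoprotection genes at the 3 stages (horizontal axes), with 1 point per library and bars at the mean ± SD. All 6 are highest in mature fruit, both genes of scaffold 35 overlap their green level at color break, and color break replicate 3 (diamond) is the lowest library of its stage in every panel.

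Carbon metabolism held rises of one enzyme and falls of others. The beta subunit of the pyrophosphate-dependent phosphofructokinase, a reversible cytosolic step of sugar breakdown, was represented by 7 genes that summed to 212 ± 4.63 FPKM in green fruit, 334 ± 6.51 at color break and 320 ± 10.1 in mature fruit. All 7 had positive log2 changes at color break, of 0.47 to 1.23, and 3 passed the limit of 1. VaccDscaff23-snap-gene-366.40 (scaffold 23, 36615953 to 36629698, 24 exons) had 63.2, 60.4 and 56.5 FPKM at color break, against 31.4, 30.6 and 30.8 FPKM in green fruit (log2 change 1.23 ± 0.06, edgeR adjusted p = 1.3e-07). VaccDscaff12-snap-gene-18.58 and VaccDscaff12-snap-gene-29.31 rose by 1.03 ± 0.11 and 1.02 ± 0.11 (edgeR adjusted p = 3.3e-05 and adjusted p = 2.7e-05). Of these, the call of VaccDscaff12-snap-gene-18.58 no longer held once green replicate 2 or color break replicate 3 was left out, and that of VaccDscaff12-snap-gene-29.31 without green replicate 1, color break replicate 1 or color break replicate 2. All 3 calls were lost with library size as the only scaling, under which the 7 changes ran from 0.18 to 0.93.

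Pyruvate, phosphate dikinase, which makes phosphoenolpyruvate from pyruvate, depended on 1 library. Its 8 genes summed to 7.997, 8.41 and 38.85 FPKM at color break, against 50.8, 56.8 and 51.7 FPKM in green fruit, and 13.35, 13.5 and 13.1 FPKM in mature fruit. The most abundant gene, VaccDscaff36-processed-gene-263.0, had 6.12, 6.36 and 30.3 FPKM at color break against 29.4, 29.8 and 25.5 FPKM in green fruit and was not called (log2 change -0.71 ± 0.62, edgeR adjusted p = 0.371). Without color break replicate 3, whose value lay above all green libraries, it fell by 1.90 ± 0.13 (edgeR adjusted p = 4.9e-06). This gene was chosen after its values were seen. Of the 5 tested genes 3 fell at color break with all libraries, and 1 of these 3 was tested through green fruit alone.

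Carbonic anhydrase, which interconverts carbon dioxide and bicarbonate, had 2 of its 3 tested genes lower at color break. VaccDscaff18-snap-gene-362.39 (scaffold 18, 36233526 to 36239113, 11 exons), tested through green fruit alone, had 5.10, 4.76 and 6.56 FPKM in green fruit, and its 3 counts at color break all came from replicate 3. This is 0.178% of its green level (95% Poisson interval 0.0368% to 0.521%, counting error only). In mature fruit it had no counts and was at least 168-fold lower than in green fruit (edgeR adjusted p = 6.5e-06, and at color break against green adjusted p = 8.3e-06). The second carbonic anhydrase gene called lower at color break, VaccDscaff17-augustus-gene-277.15, had 0.594, 1.96 and 2.60 FPKM at color break and 5.85, 2.39 and 4.70 FPKM in mature fruit, against 7.00, 9.60 and 8.52 FPKM in green fruit, and was not called in mature against green (log2 change -0.70 ± 0.48, edgeR adjusted p = 0.241). It was chosen after its values were seen.

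The other enzymes of carbon fixation and its neighbours showed smaller differences. Of 8 tested genes for phosphoenolpyruvate carboxylase, which adds bicarbonate to phosphoenolpyruvate, 0 were called by edgeR, DESeq2 or limma at color break against green, and 1 was lower at an unadjusted p under 0.05 in edgeR. The most abundant, VaccDscaff28-snap-gene-239.29, had 3.90, 3.90 and 5.22 FPKM at color break against 5.73, 6.04 and 6.32 FPKM in green fruit (log2 change -0.20 ± 0.14, edgeR adjusted p = 0.261). Of 4 tested genes for a chaperone of Rubisco assembly, 0 were called at color break by the 3 tools and 0 had an unadjusted p under 0.05 in edgeR. With 3 untested copies they summed to 28.2, 29.6 and 17.9 FPKM at color break, against 26.4, 26.4 and 25.6 FPKM in green fruit. Color break replicates 1 and 2 lay above all green libraries and replicate 3 below them.

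Among the remaining roles, all 3 tested genes with chlorophyll-binding and chlorophyll regulation terms fell at color break, by 1.25 to 1.80 on the log2 scale. One zinc finger transcription factor gene of 6 fell, VaccDscaff40-processed-gene-40.5 (scaffold 40, 4061917 to 4062639, 1 exon), tested through green fruit alone, with 0.0464, 0.0382 and 0.316 FPKM at color break against 1.64, 1.67 and 1.72 FPKM in green fruit (log2 change -3.15 ± 0.62, edgeR adjusted p = 0.00181). In group II intron splicing 2 of 5 genes fell. Of 6 heme oxygenase genes 1 fell, and it was tested through green fruit alone. The 5 genes for ppGpp synthesis, the 3 related to cysteine synthase and the 5 mitochondrial carrier genes that carry a photorespiration term had 0 calls at color break in edgeR and in DESeq2, and 6 of these 13 had an unadjusted p under 0.05 in edgeR, 4 of them upwards. The lowest edgeR adjusted p in these 3 sets was 0.00227, 0.0256 and 3.5e-05, in that order. None of their log2 changes reached the limit of 1, and those of the carrier genes ran from -0.21 to 0.92.

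Gene copies that share a protein description were not called in opposite directions. Bluecrop is a tetraploid with several copies of most genes, and 142 of the 164 tested genes share their protein description with at least 1 other, in 47 descriptions of up to 4 copies. At color break all copies fell in 15 descriptions, all rose in 1, and no copy was called in 17. In 11 some copies fell and in 3 some rose while the rest had no call, and in 0 did a copy rise while another fell. The copies were unequal in level, with over 5-fold between the highest and the lowest mean FPKM in 16 descriptions. Photosystem I genes were short, with a median of 881 nt and 3 exons, and carbon metabolism genes long, with a median of 2609 nt and 19 exons.

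Other photosynthesis lists of the same libraries gave a frame. Of 49 tested light-harvesting genes 34 fell and 4 rose at color break (median log2 change -1.26), of 115 chlorophyll synthesis genes 37 fell and 0 rose (median -0.72), and of 43 plastid translation genes 19 fell and 0 rose (median -0.96). Of 88 genes with a KEGG ortholog of the Calvin cycle, which fixes carbon dioxide, 30 fell and 17 rose (median -0.13). The genes with the GO term for that cycle gave other counts: of 70 tested, 31 fell and 4 rose (median -0.64), and they summed to 864.5 to 966.4 FPKM at color break against 2754 to 2944 FPKM in green fruit. Of 115 tested photorespiration genes 16 fell and 0 rose (median 0.10). That list summed to 1005 to 1048 FPKM at color break against 2041 to 2145 FPKM in green fruit. No list was tested against the photosynthesis genes.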

How the data were processed

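RNA-seq libraries of blueberry fruit, 3 from early green, 3 from color break and 3 from mature fruit, were grouped by the stage in the labels. FPKM and estimated counts were deposited by the authors in 1 table of 93716 genes. The submitters' processing notes name fastp, HISAT2, StringTie and DESeq2, while their versions and the genome build were not given in the sources used here. A Populus hybrid is named in the library protocol, whereas the organism field and gene names are those of blueberry. The deposited estimated counts are whole numbers, equal to FPKM times transcript length times 1 constant per library, rounded up. They come from fractional coverage, so intervals cover counting error only. Whether counting used strand is not stated.

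The 48073 genes that reached 1 FPKM in 3 or more libraries were fitted together with edgeR 4.0.16 in R 4.3.3, with TMM scaling, robust quasi-likelihood and stage as the only term. Calls needed a Benjamini-Hochberg adjusted p under 0.05 over all tested genes and a log2 change of 1 or more in either direction. Log2 changes are given ± SE, and FPKM as mean ± SD of 3 libraries. Of the photosynthesis genes 242 have only a hypothetical protein as description, so role groups came from KEGG orthologs and GO terms in place of the planned description text. From each group the rule names the most abundant gene, the largest rise and fall per comparison among called genes whose stages do not overlap, and up to 3 calls against the group's majority. The members and lists were chosen with earlier results of these data known. Simulated data of 48073 genes were drawn around each gene's mean over all 9 libraries. At color break 50 genes were altered per fold, equally up and down. For color break against green, 36% of the genes altered 2-fold, 80% of those altered 4-fold and 0.00836% of unchanged genes were called. Far fewer genes were altered there than the 10979 called in the real comparison, so these rates cannot be carried over to it. Sequences of these genes were not used here. Alternatives were other filters, scalings, tools (DESeq2 1.42.0, limma 3.58.1), samples, copies summed, a replicate block and each library left out.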

Additional observations from a re-analysis of the deposited data

How the results depend on the processing

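Counts of called photosynthesis genes kept within 1.5 times of their values under median-of-ratios scaling and in every other setting not named here. At a mean FPKM of at least 5, color break against green gave 2 rises and 46 falls (median -1.08), mature against green 4 and 48 (median -1.52), and the F test 76 genes, from 89 tested. With no filter the medians were -0.80 at color break and -1.05 in mature against green. With library size as the only scaling, rises at color break were 4 and the medians -1.26 and -1.54. Limma on log2(FPKM + 1) gave 4 rises at color break, a median of -1.09 in mature against green, and 0 falls in mature against color break, where 50 genes were lower at an unadjusted p under 0.05 and DESeq2 called 9. Limma on log2(FPKM + 0.1) gave 5 rises at color break and medians of -1.25 and -1.51 against green. DESeq2 gave 7 rises in mature against color break. A fit of only the 2 stages compared gave 2 rises and 3 falls there. Without a fold limit there were 21 rises at color break, 29 falls in mature against color break and 24 rises in mature against green. Copies summed by description gave 14 rises in mature against green, and turned VaccDscaff35-augustus-gene-34.47 at color break to 2.59.

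With each library left out in turn, color break against green gave 6 to 9 rises and 69 to 80 falls (median -0.99 to -0.93). Mature against color break gave 1 to 4 rises and 2 to 9 falls (median -0.26 to -0.20), mature against green 8 to 10 rises and 87 to 91 falls (median -1.29 to -1.18), and the F test 112 to 128 genes. Whether replicate numbers pair the libraries was not settled. The correlation of same-numbered deviations ran from -0.030 to 0.223, and that of differently numbered ones from -0.174 to 0.117. The highest value was that of replicate 3 in mature and color break fruit. A replicate block gave 7 rises and 76 falls at color break, 4 and 5 in mature against color break, 9 and 89 in mature against green, and 122 genes in the F test. Of 44 calls of named genes, 12 were lost in at least 1 alternative. Depth sets the floor of 3 counts per library behind the bounds for genes without counts. The causes of these differences were not tested.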
